A study of Mus musculus with 6 samples.

Results

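The transcripts of 10 integrin chains were compared between bone marrow-derived macrophages (BMDMs) of WT and PYK2 KO mice. BMDMs are macrophages that differentiate in culture from flushed bone marrow. The chains were the α subunits Itgam, Itgal, Itgax, Itga4, Itga5 and Itgav and the β subunits Itgb2, Itgb1, Itgb3 and Itgb5, taken by gene symbol from the 55291 genes of the count table. Both groups carried the strain label C57BL/6 and were cultured for 7 days in medium with L929-conditioned supernatant as the source of M-CSF. There were 3 mice of each genotype with one library per mouse, numbered 1, 5 and 6 in WT and 2, 3 and 4 in PYK2 KO. The labels give the genotype as a Pyk2 knock-out, and the study describes it as a deletion in the whole animal, so the bone marrow cells lacked PYK2 before they became macrophages. Age and sex were not in the labels.

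Integrins are receptors made of one α and one β chain that join the cell to matrix or to other cells. The chains pair in the endoplasmic reticulum, so the receptor at the surface depends on both transcripts and on protein control that RNA does not show. In macrophages the β2 integrins, with αM (CD11b), αL (CD11a) or αX (CD11c), bind ICAMs, fibrinogen and complement fragments. The β1 integrins α4β1 and α5β1 bind VCAM-1 and fibronectin, and αvβ3 and αvβ5 bind RGD-containing ligands such as vitronectin, osteopontin and MFG-E8. PYK2, encoded by Ptk2b, is a kinase related to FAK that is activated when integrins engage, so the chains described here belong to receptors upstream of the deleted gene.

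Each library held between 2857097 and 3917207 counts. Ptk2b fell from 195 ± 5.63 CPM in WT to 21.8 ± 1.14 CPM after the deletion (SD, n = 3 mice in each group), in accord with the labels, where CPM is the read count relative to the TMM-scaled total of the tested genes. The defining macrophage markers were present in every library, with a summed level of 31018 to 32102 CPM over 10 markers in WT and 31976 to 33279 CPM in PYK2 KO BMDMs, and 0 of them passed the edgeR test. Most of this sum came from Lyz2, at 23536 to 24431 CPM in WT against 24815 to 25925 in PYK2 KO BMDMs. The Lyz2 groups did not overlap, where 5.17% of all tested genes were higher in this way. Of 8 dendritic cell markers 6 had no count in any library, as did 5 of 6 B cell markers, 4 of 8 T and NK cell markers, 6 of 7 erythroid, 4 of 7 stromal and 3 of 6 mast cell and basophil markers. Other markers of these lists were counted in every library. The B cell marker Cd79b had 43 to 80 counts per library (13.8 to 23.2 CPM), Cd4 had 14 to 31 and Batf3 had 7 to 22. The groups overlapped for each, and which cells these counts came from was not tested. Among 8 megakaryocyte and platelet markers the sum of 648 to 861 CPM in WT against 650 to 666 in PYK2 KO BMDMs came almost wholly from Pf4, a chemokine that macrophages also express, while Gp9, Gp1ba, Gp6 and Tubb1 were at 0. All 8 neutrophil markers had a count, with a sum of 127 to 180 CPM in WT against 133 to 229 in PYK2 KO BMDMs, and 0 of the 6 tested markers passed.

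The promoters of 2 chains are shown because Itgam and Itgax are neighbouring, related genes whose transcripts stood far apart in these macrophages. Itgam lies on chromosome 7 from 128062640 to 128118491 and Itgax on the same strand from 128129547 to 128150657 (GRCm38), with 11055 bases between them. Their mean levels over the 6 libraries were 638 and 3.06 CPM. The sequences come from RefSeq (GRCm38.p6), read 5′ to 3′ on the plus strand, and cover the bases just before the annotated start, at chr7:128062390-128062639 for Itgam and chr7:128129300-128129546 for Itgax. Capitals mark the letters GAGGAA or their reverse complement TTCCTC, a purine-rich core of the kind bound by ETS factors such as PU.1, the main transcription factor of macrophages.
Itgam: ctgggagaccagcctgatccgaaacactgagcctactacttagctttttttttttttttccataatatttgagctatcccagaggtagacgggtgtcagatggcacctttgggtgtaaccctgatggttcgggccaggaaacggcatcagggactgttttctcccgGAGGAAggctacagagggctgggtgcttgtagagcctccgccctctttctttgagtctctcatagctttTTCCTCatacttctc
Itgax: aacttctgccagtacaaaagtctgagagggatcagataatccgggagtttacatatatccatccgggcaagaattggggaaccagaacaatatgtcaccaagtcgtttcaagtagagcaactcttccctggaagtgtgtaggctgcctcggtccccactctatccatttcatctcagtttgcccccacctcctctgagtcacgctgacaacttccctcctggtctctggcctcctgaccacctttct

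The Itgam window held 2 matches and the Itgax window 0. Of the 10 chains, 7 had a window in the RefSeq table and 4 of these held a match on either strand. The matches did not follow the levels, since Itgav, at 5.51 CPM, held 2 and Itgb5 and Itga4, at 186 and 28.2 CPM, held 0, while Itgb1 and Itga5 held 1 each. Over all 32851 windows of 250 bases, 23.3% did. The Itgax sequence was searched over 250 bases and is printed as 247, up to the first annotated exon. A match describes the letters only, and no binding was measured here.

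None of the 10 chains passed the test for a difference between genotypes. All 10 passed the filter on low counts, and 0 reached an adjusted p-value under 0.05 in the quasi-likelihood test of edgeR (Benjamini-Hochberg adjustment), where 0.255% of the 9815 tested genes did (0.112% higher and 0.143% lower in PYK2 KO). At an unadjusted p-value under 0.05 the number was also 0, against 6.03% of all tested genes (3.40% higher and 2.63% lower), and DESeq2 and limma-voom called 0 as well. The fold changes lay between -0.19 and 0.18 on the log2 scale, with 5 chains above 0 and 5 below and a median of -0.01, beside a median of 0.0019 over all tested genes. In 2 chains, Itgam and Itga4, the 3 PYK2 KO values lay above the 3 WT values. Such a separation in either direction was found in 10.2% of all tested genes, 5.17% with PYK2 KO higher and 5.07% with PYK2 KO lower. These are whole cultures, in which fewer cells of a type and less RNA per cell cannot be told apart.

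**Figure D1:**
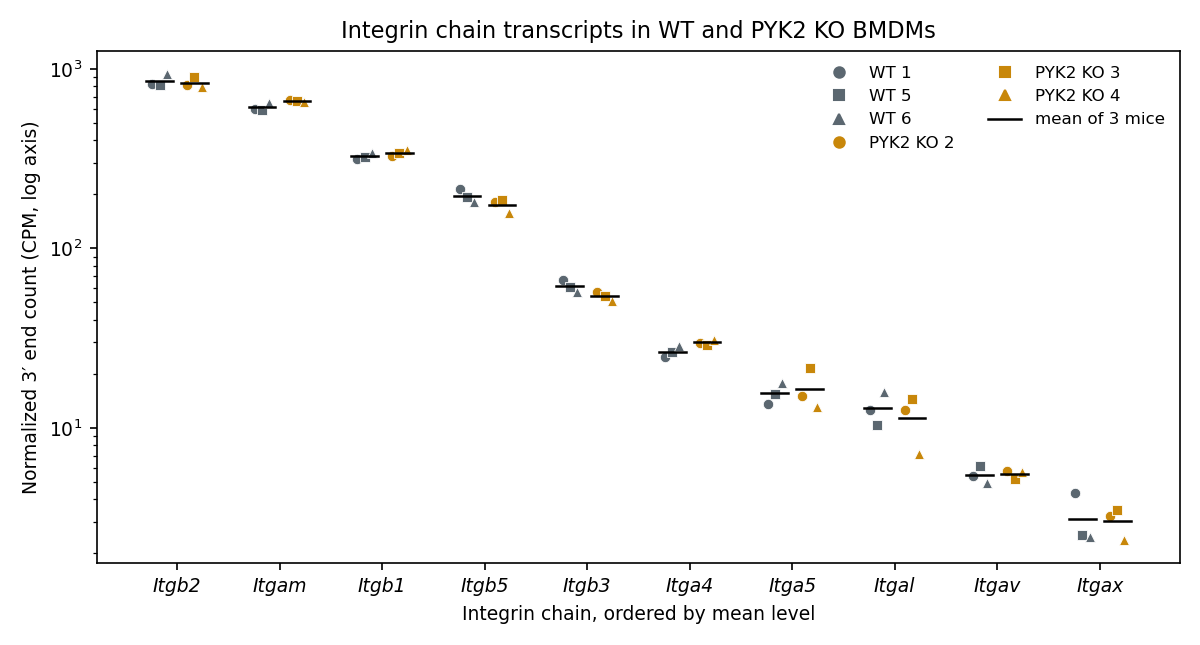
Normalized 3′ end counts (CPM, log axis) of the 10 integrin chains, ordered by mean level, with one point per mouse (WT 1, 5 and 6 in grey; PYK2 KO 2, 3 and 4 in orange) and a black line at the mean of 3 mice. The chains run from 848 CPM for Itgb2 to 3.06 CPM for Itgax, and the genotypes overlap in 8 of the 10.

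The level of the chains was led by the β2 family. Ordered by the mean CPM of the 6 libraries, the transcripts were Itgb2 (848), Itgam (638), Itgb1 (334), Itgb5 (186), Itgb3 (57.9), Itga4 (28.2), Itga5 (16.1), Itgal (12.1), Itgav (5.51) and Itgax (3.06). MARS-seq counts the 3′ end of each transcript, so these levels were not divided by gene length, and how well each 3′ end was captured was not tested. Neighbours in this order did not overlap over the 6 libraries, except Itga5 and Itgal, whose ranges were 13.1 to 21.5 CPM and 7.15 to 15.8 CPM. Itgav and Itgax lay close, with a minimum of 4.91 CPM for Itgav and a maximum of 4.34 CPM for Itgax. The 10 chains summed to between 2048 and 2232 CPM per library. Itgam and Itgb2 alone made up 68.3% to 71.0% of that sum, and this share overlapped between genotypes.

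Itgb2 encodes the β2 chain (CD18) that αM, αL and αX share as a partner and lies on chromosome 10 from 77530252 to 77565708 (GRCm38, plus strand). It was at 820.3, 817 and 937 CPM in WT libraries 1, 5 and 6, and at 816, 901 and 795 CPM in PYK2 KO libraries 2, 3 and 4. WT library 6 was the highest and PYK2 KO library 4 the lowest, with the groups overlapping. The log2 fold change was -0.03, with a standard error of 0.08 and an adjusted p of 0.993 (edgeR), and its 95% interval placed the PYK2 KO level between 86.3% and 111% of WT.

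Itgam encodes αM (CD11b), which with β2 forms the complement receptor Mac-1. Its level was 597, 592 and 648 CPM in WT libraries 1, 5 and 6, and 672, 661 and 657 CPM in PYK2 KO libraries 2, 3 and 4. All PYK2 KO values were above all WT values. The log2 fold change was 0.12 (standard error 0.08), with a 95% interval from -0.05 to 0.28, and did not pass (adjusted p = 0.919, edgeR). The two-sided exact permutation test gave p = 0.1, the smallest that 3 against 3 mice allow. In GENCODE M21 a second gene model on the same strand, Gm49368, shares 3450 exon bases with Itgam. It had 7 counts over the 6 libraries, and reads that could not be assigned between these models were not seen here. Neutrophils and their precursors also express Itgam, and of the 6 tested neutrophil markers 4 had fold changes above 0 and 2 below, with none passing in edgeR. S100a9 was at 70.7, 30.0 and 34.0 CPM in WT against 50.7, 93.2 and 103 in PYK2 KO BMDMs, with overlapping groups (adjusted p = 0.537, edgeR). Mpo was at 1.53, 3.36 and 1.40 CPM in WT against 3.53, 4.85 and 6.26 in PYK2 KO BMDMs, with no overlap (adjusted p = 0.591, edgeR). The log2 fold changes of the other 4 were 0.19 for Ngp, 0.10 for S100a8, -0.09 for Ltf and -0.26 for Camp, all with overlapping groups. The part of these markers in the Itgam values was not tested.

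Itgal and Itgax encode αL (CD11a, of LFA-1) and αX (CD11c), and both were far below Itgam. Itgal, on chromosome 7 from 127296260 to 127335138 (plus strand), was at 12.5, 10.4 and 15.8 CPM in WT against 12.5, 14.5 and 7.15 in PYK2 KO BMDMs, with PYK2 KO library 4 the lowest of all 6. The counts of Itgax were 17, 9 and 7 in WT 1, 5 and 6, against 10, 10 and 8 in PYK2 KO 2, 3 and 4, or 3.10 ± 1.07 and 3.02 ± 0.564 CPM (SD, n = 3 mice each). WT library 1 was the highest for Itgax, and the groups overlapped. At these counts the sampling error of one library alone was near 31.4% of the value for Itgax and 15.9% for Itgal. The SD between PYK2 KO mice was 33.5% for Itgal, above that counting error. The 95% intervals were wide, from 54.2% to 165% of the WT level for Itgax and from 61.1% to 128% for Itgal, and the data do not exclude changes within those bounds.

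Itgb1, the β1 chain shared by most matrix-binding integrins, lies on chromosome 8 from 128685654 to 128733200 (plus strand). It was at 317, 324 and 340.0 CPM in WT against 327, 341 and 354 in PYK2 KO BMDMs, with the groups overlapping. Its log2 fold change of 0.06 (standard error 0.08) had a 95% interval from -0.11 to 0.23.

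Itga4 encodes α4, which pairs with β1 to bind VCAM-1 and fibronectin or with β7 to bind MAdCAM-1, and lies on chromosome 2 from 79255426 to 79333123 (plus strand). The levels were 24.8, 26.3 and 28.4 CPM in WT libraries 1, 5 and 6, and 29.8, 29.1 and 31.0 CPM in PYK2 KO libraries 2, 3 and 4. The groups did not overlap, and the gap between them was smaller than the spread within WT. The log2 fold change was 0.18 (standard error 0.13), with a 95% interval from -0.10 to 0.47, and did not pass (adjusted p = 0.932, edgeR). Its exact permutation p was 0.1 (two-sided), again the smallest possible. Itga4 shares 1124 exon bases with Cerkl, annotated on the opposite strand with 15 counts in all, and whether strand was used in counting is not given in the sources used here.

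Itga5 encodes α5 of the fibronectin receptor and lies on chromosome 15 from 103344286 to 103366763 (minus strand). It was at 13.5, 15.4 and 17.9 CPM in WT against 15.1, 21.5 and 13.1 in PYK2 KO BMDMs. The PYK2 KO libraries held both the highest and the lowest value, and the log2 fold change of 0.09 (standard error 0.21) turned to -0.14 without PYK2 KO library 3.

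Both β chains of the αv group had point estimates below 0, and neither passed. Itgb5, on chromosome 16 from 33829665 to 33949338 (plus strand), encodes the β5 chain of the vitronectin receptor αvβ5. Its level was 215, 193 and 181 CPM in WT libraries 1, 5 and 6, and 181, 186 and 158 CPM in PYK2 KO libraries 2, 3 and 4. WT library 1 was the highest and PYK2 KO library 4 the lowest, and WT library 6 lay within the PYK2 KO range. The log2 fold change was -0.17 (standard error 0.09), with a 95% interval from -0.36 to 0.03 (adjusted p = 0.894, edgeR). Itgb5 was the one chain of the 10 that reached an unadjusted p-value under 0.05 in any fit with a library left out, namely without WT library 6.

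Itgb3, on chromosome 11 from 104608000 to 104670476 (plus strand), encodes the β3 chain, which forms αvβ3 in macrophages and osteoclasts. Its level was 66.7, 61.0 and 57.1 CPM in WT libraries 1, 5 and 6, and 57.4, 54.4 and 51.0 CPM in PYK2 KO libraries 2, 3 and 4. The groups met at one point, where PYK2 KO library 2 was just above WT library 6. The log2 fold change was -0.19 (standard error 0.11), with a 95% interval from -0.41 to 0.04 (adjusted p = 0.896, edgeR). The summed level of 8 osteoclast markers was 38.5 to 43.6 CPM in PYK2 KO BMDMs against 47.9 to 51.9 CPM in WT. Calcr and Ocstamp were at 0, and 0 of the 4 tested markers were called. The part of these markers in the Itgb3 values was not tested. Most of the difference in the summed level came from Ctsk, at 28.5 ± 3.53 CPM in WT against 21.7 ± 1.59 in PYK2 KO (SD, n = 3 mice each). The Ctsk groups did not overlap, where 5.07% of all tested genes were lower in this way. Acp5, Mmp9 and Atp6v0d2 overlapped between genotypes, with 8.41 against 8.39 CPM for Acp5 on average.

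Itgav, the αv chain that both of these β chains need as a partner, lies on chromosome 2 from 83724397 to 83806916 (plus strand). It had only 14 to 22 counts per library. Its level was 5.48 ± 0.633 CPM in WT against 5.54 ± 0.307 in PYK2 KO (SD, n = 3 mice each), and the 95% interval ran from 67.9% to 149.9% of WT. Itgav shares 634 exon bases with Gm13684 on the opposite strand, which had 0 counts.

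**Figure D2:**
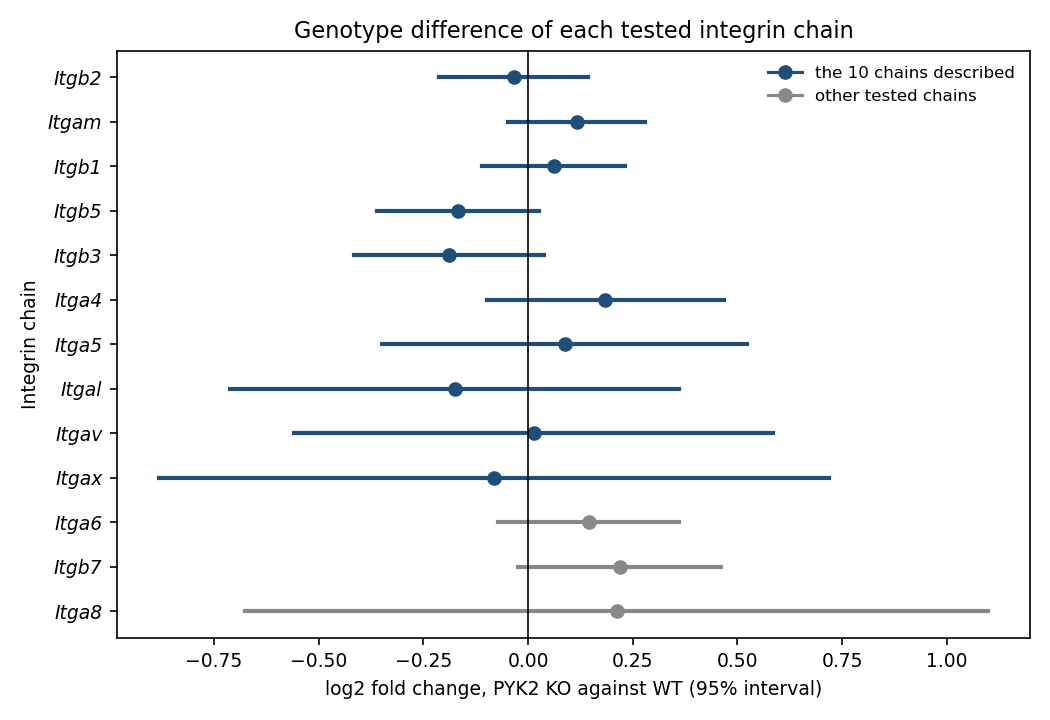
Log2 fold change of PYK2 KO against WT BMDMs (point) with its 95% interval (line) for the 10 integrin chains, from the highest to the lowest level, and below them in grey the other tested chains. Every interval crosses 0, and the lines widen from Itgam (-0.05 to 0.28) to Itgax (-0.88 to 0.72) as the counts fall.

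The precision followed the counts. For the 5 chains above 50 CPM, which were Itgb2, Itgam, Itgb1, Itgb5 and Itgb3, the 95% intervals kept the PYK2 KO level between 75.0% and 121% of WT. For the 5 chains below that level the intervals spanned 54.2% to 165%.

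The balance of partner chains was then compared within each library, where scaling between libraries cancels out. Of 8 pairs that form a receptor, 6 overlapped between genotypes in the log2 ratio of α to β, and 2 did not, where 10.2% of single genes did not overlap in CPM. The α chains of these 2 pairs are Itgam and Itga4, the same chains that did not overlap in their own CPM. The Itgam level was 72.7%, 72.5% and 69.2% of the Itgb2 level in WT libraries 1, 5 and 6, and 82.4%, 73.4% and 82.5% in PYK2 KO libraries 2, 3 and 4. PYK2 KO library 3 lay just above the WT libraries and the other two well above. The mean log2 ratio was -0.49 ± 0.04 in WT and -0.33 ± 0.10 in PYK2 KO (SD, n = 3 mice each), a difference of 0.15 that stayed between 0.12 and 0.21 whichever library was left out. The log2 ratio of Itga4 to Itgb1 was -3.63 ± 0.05 in WT and -3.51 ± 0.05 in PYK2 KO (SD, n = 3 mice each). Both pairs were picked out of the 8 after their values were seen, so these ratios are given as a description with no test.

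**Figure D3:**
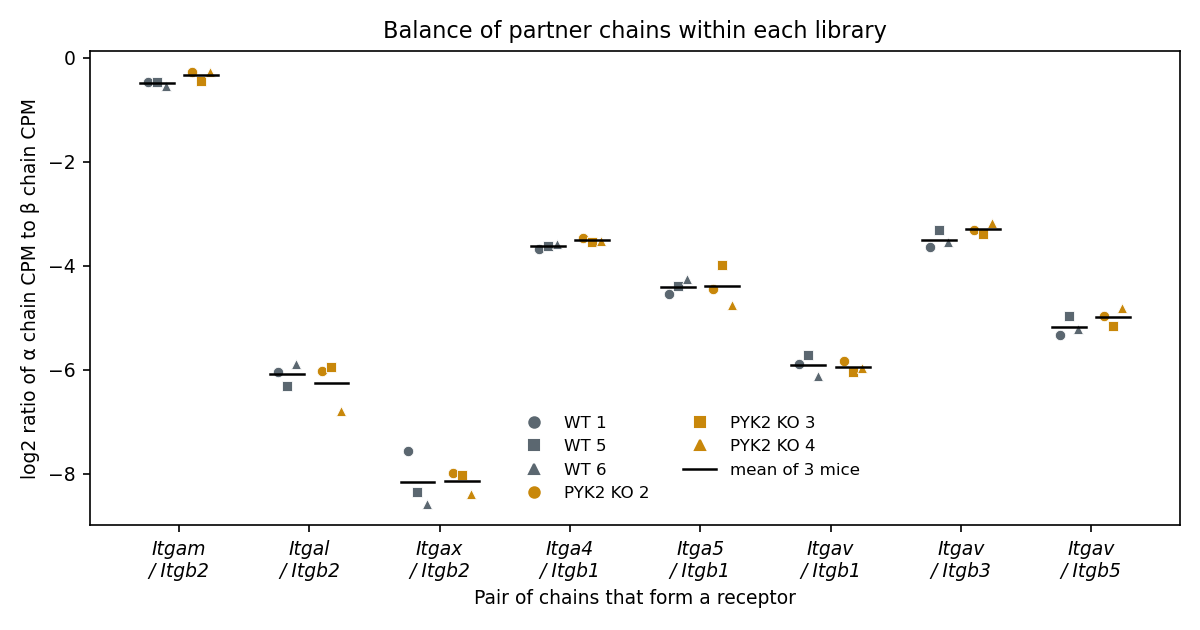
Log2 ratio of the α chain CPM to the β chain CPM within each library, for 8 pairs of chains that form a receptor, with one point per mouse (WT grey, PYK2 KO orange) and a black line at the mean of 3 mice. The PYK2 KO points lie above the WT points for Itgam with Itgb2 and for Itga4 with Itgb1, and the genotypes overlap in the other 6 pairs.

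In every library Itgb2 exceeded the sum of its 3 α partners, by 128 to 271 CPM, and Itgam made up 97.3% to 98.6% of those α transcripts. The β chains made up 68.3%, 68.1% and 67.9% of the summed CPM of the 10 chains in WT libraries 1, 5 and 6, and 65.2%, 66.9% and 65.5% in PYK2 KO libraries 2, 3 and 4. This share was lower in each PYK2 KO library than in each WT library and, as a sum over the chains, was not tested.

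Of the 17 other integrin chains of the mouse on the list used here, 13 had at least one count and 3 passed the filter. Itga6, which encodes the laminin-binding α6, was at 141, 134 and 110.4 CPM in WT against 134, 134 and 158 in PYK2 KO BMDMs, with a log2 fold change of 0.15 (95% interval -0.07 to 0.36). Itgb7, the β7 chain that pairs with α4 or αE, was at 39.6, 41.4 and 44.5 CPM in WT against 51.3, 45.4 and 48.9 in PYK2 KO BMDMs. The Itgb7 groups did not overlap, and its log2 fold change of 0.22 (95% interval -0.02 to 0.46) did not pass (adjusted p = 0.876, edgeR). Itga8 was at 3.18 ± 1.80 CPM in WT against 3.47 ± 1.02 in PYK2 KO (SD, n = 3 mice each). Itga1, Itgb4 and Itgb2l had 1 to 8 counts per library and were not tested. Itgad, Itgae, Itgb6 and Itgb8 had no count in any library, which by the limit of 3 counts allows up to 0.766 CPM in the deepest and 1.05 CPM in the shallowest library.

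Apart from Ptk2b, the calls in the pathway lists were both among the ligands. Of 36 ligand genes on the list, 11 passed the filter, with 1 higher and 1 lower in PYK2 KO BMDMs at an adjusted p-value under 0.05 and 9 not called, where 0.255% of all tested genes were called. At an unadjusted p-value under 0.05 there were 5 of the 11, 4 higher and 1 lower, against 6.03% of all tested genes. Their median log2 fold change was 0.20, against 0.0019 over all tested genes. Spp1 and Mfge8, both matrix ligands of αv integrins, were the 2 that passed. Fn1, which encodes fibronectin, had at most 2 counts in a library, and Vcam1 at most 1. How well the 3′ ends of these transcripts were captured was not tested.

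Spp1, on chromosome 5 from 104435118 to 104441050 (plus strand), encodes osteopontin, a secreted RGD protein that αvβ3 and α4 and α9 integrins bind. Its level was 3123, 3092 and 3965 CPM in WT libraries 1, 5 and 6, and 4610, 4654 and 4616 CPM in PYK2 KO libraries 2, 3 and 4. The PYK2 KO libraries lay close together, and WT library 6 stood between them and the other WT libraries. Spp1 rose by 0.45 on the log2 scale, with a standard error of 0.09 and an adjusted p of 0.043 (edgeR), a 95% interval of 120.1% to 155% of WT. It kept the call in all 9 fits with another scaling, filter, test or covariate and lost it in 5 of the 6 fits with one library left out, all but that without WT library 6, with adjusted p-values up to 0.411 in those edgeR fits. Its log2 fold change was between 0.38 and 0.57 in the 6 fits.

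Mfge8, on chromosome 7 from 79133768 to 79149060 (minus strand), encodes MFG-E8, which bridges phosphatidylserine on dying cells to αvβ3 and αvβ5. Its level was 294, 304 and 304 CPM in WT libraries 1, 5 and 6, and 241, 185 and 197 CPM in PYK2 KO libraries 2, 3 and 4. The WT libraries agreed closely, all PYK2 KO values were lower, and PYK2 KO library 2 was the nearest to WT. Mfge8 fell by 0.53 on the log2 scale, with a standard error of 0.10 and an adjusted p of 0.0275 (edgeR), at 60.0% to 79.7% of WT by its 95% interval. It too kept the call in those 9 fits, and lost it without WT library 5 or 6 or PYK2 KO library 3 or 4, with adjusted p-values up to 0.209 in edgeR. Its log2 fold change was between -0.65 and -0.46 in the 6 fits.

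Among the other ligands, Icam2, a ligand of LFA-1, gave 0.49 on the log2 scale with a standard error of 0.19 and an adjusted p of 0.662 (edgeR), with overlapping groups, and PYK2 KO library 3 was the highest at 38.1 CPM. Icam1, the main ligand of LFA-1 and Mac-1, was at 73.3 ± 5.36 CPM in WT against 83.3 ± 13.6 in PYK2 KO (SD, n = 3 mice each). C3, whose fragment iC3b is bound by Mac-1, was at 60.8 ± 4.88 and 69.5 ± 5.16 CPM. Nrros, which holds latent TGF-β for activation by αv integrins, was at 490.1 ± 21.3 and 447 ± 30.3 CPM. None of these 4 passed. Thbs1 and Lamc1, which encode the matrix proteins thrombospondin-1 and the laminin γ1 chain, were higher in every PYK2 KO library than in every WT library, with log2 fold changes of 0.37 and 0.32, and did not pass (adjusted p = 0.783 and 0.778, edgeR).

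**Figure D4:**
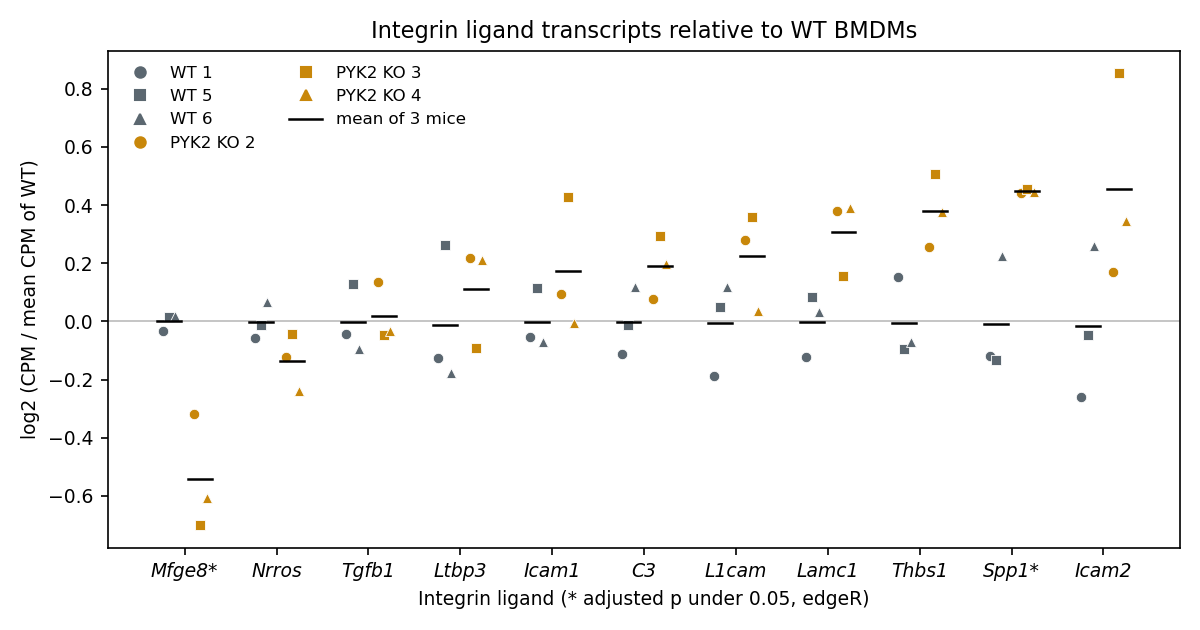
Level of the 11 tested integrin ligand genes in each library as log2 of its CPM over the mean CPM of WT, ordered by fold change, with one point per mouse (WT grey, PYK2 KO orange) and a black line at the mean of 3 mice. Mfge8 is lower and Spp1 higher in all 3 PYK2 KO libraries, and an asterisk marks these 2 genes with an adjusted p-value under 0.05 in edgeR.

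Of 23 genes whose proteins switch integrins on or off from the inside, 20 were tested and 0 passed in edgeR, where 0.255% of all tested genes did. At an unadjusted p-value under 0.05 there were 0, against 6.03% of all tested genes. Their log2 fold changes ran from -0.22 to 0.14 around a median of -0.03. Tln1, encoding talin, which binds the β tail, was at 741 ± 50.9 CPM in WT against 732 ± 65.1 in PYK2 KO BMDMs. Fermt3, encoding kindlin-3, was at 438 ± 21.0 and 406 ± 27.7 CPM, and Apbb1ip, encoding the Rap1 effector RIAM, at 338 ± 7.74 and 315 ± 16.3 CPM (SD, n = 3 mice each throughout). Flna and Itgb1bp1, whose products hold integrins inactive, had log2 fold changes of 0.06 and 0.14.

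Of 27 genes for integrin recycling and membrane partners 25 were tested and 0 passed in edgeR, and 1 of the 25, Arf6, had an unadjusted p-value under 0.05, a share below the 6.03% of all tested genes. Arf6, a GTPase of integrin recycling, was at 236 ± 3.87 CPM in WT against 210.3 ± 8.61 in PYK2 KO (SD, n = 3 mice each), where edgeR gave -0.17 on the log2 scale (adjusted p = 0.823). The most abundant partners were Lgals3 (galectin-3), with a log2 fold change of -0.05, and the tetraspanin Cd63, with 0.05. Tspan4 and Slc3a2 (CD98) were at -0.17 and -0.09.

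Of 33 genes of proximal integrin signaling 29 were tested, and Ptk2b itself was the only one that passed, lower in PYK2 KO BMDMs. Counting Ptk2b, 5 of the 29 had an unadjusted p-value under 0.05, 2 higher and 3 lower, where 6.03% of all tested genes did (3.40% higher and 2.63% lower). The groups did not overlap in 7 of these 29, 4 higher and 3 lower, where 10.2% of all tested genes did not. Beside Ptk2b, Ptk2 and Lims1, the 5 included the kinase genes Fgr and Src. Fgr was at 36.6 ± 2.72 CPM in WT against 47.0 ± 6.46 in PYK2 KO BMDMs, and Src at 4.97 ± 0.706 against 3.02 ± 0.564 (SD, n = 3 mice each). Neither overlapped between genotypes, and neither passed (adjusted p = 0.627 and 0.783, edgeR). Lims1 (PINCH-1), a scaffold that joins ILK, was at 82.5, 71.9 and 87.6 CPM in WT against 94.6, 91.1 and 94.8 in PYK2 KO BMDMs, while Ilk was at 268 ± 3.40 and 266 ± 11.5 CPM (SD, n = 3 mice each). Skap2, an adaptor of β2 signaling, was at 251 ± 4.83 and 270.3 ± 14.2 CPM, and the exchange factor gene Dock2 at 211 ± 4.49 and 203 ± 10.6 CPM. Elmo1 was at 2.50 ± 0.743 and 4.01 ± 1.56 CPM. Ptk2, encoding FAK, was at 10.4 ± 1.63 and 5.69 ± 0.778 CPM (SD, n = 3 mice each), with no overlap between the groups, and did not pass over all tested genes (adjusted p = 0.401, edgeR).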

How the data were processed

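RNA of 3 WT and 3 PYK2 KO BMDM cultures was sequenced with MARS-seq adapted to bulk RNA, a 3′ end method. The authors ran UTAP to map and count the reads, and the deposited values are raw counts per gene symbol. The submitters' processing notes name cutadapt, STAR and mm10. Whether molecular identifiers were collapsed is not given in the sources used here, so counting errors and limits cover counting error only.

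Each column was matched to its mouse by title. Genotype was the only term of the quasi-likelihood model, fitted by edgeR 4.0.16 under R 4.3.3. Low counts were removed by filterByExpr, libraries were scaled by TMM, and a gene was called at an adjusted p (Benjamini-Hochberg, 9815 genes) under 0.05. CPM used the effective size of the tested genes. Standard errors and 95% intervals came from the fold change, the F statistic and its degrees of freedom. Alternatives were DESeq2 1.42.0, limma 3.58.1 (voom), edgeR's likelihood ratio test, other scalings and filters, the first residual principal component as a covariate, and leaving out each library. Exact permutation tests were two-sided. Positions came from GENCODE M21.

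The chains and gene lists, written from general knowledge, were chosen with earlier results of these data known. The text names the 10 chains, other chains with a mean of at least 1 CPM, the most abundant gene and the gene with the smallest p-value of each role in the lists, and Ptk2b. Genes outside this rule were chosen after their values were seen, namely Fn1, Vcam1, Thbs1, Lamc1, Fgr, Src, Cerkl, Gm49368, Gm13684, the 4 chains without a count and the marker genes.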

Additional observations from a re-analysis of the deposited data

How the results depend on the processing

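No paired analysis was possible because the genotypes share no library number. The number of integrin chains past the threshold was 0 under each alternative run, and Itgax could not be fitted with at least 10 counts in every library. The number of all genes past it was 25, and 159 without a filter, 45 with the likelihood ratio test, 62 with the residual principal component as a covariate (31.1% of the residual variance, with WT library 1 and PYK2 KO library 4 at one end), and 14 to 34 with one library left out, with 14 when PYK2 KO 4 was left out and 15 when WT 5 or PYK2 KO 2 was. The pathway lists had 3 genes called (Spp1, Mfge8 and Ptk2b), and 1 to 2 with one library left out, with 1 when WT 5, PYK2 KO 3 or PYK2 KO 4 was left out. The cause was not tested.

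Over 36 single genes, 509 of 537 values had the sign and the call of the reported one, 9 lost the call (5 for Spp1 and 4 for Mfge8) and 19 reversed in sign, all with one library left out. The log2 fold changes over those fits ran from -0.38 to 0.0839 for Itgal, -0.22 to 0.26 for Itgax, -0.0907 to 0.0331 for Itgb2, -0.14 to 0.24 for Itga5, -0.0489 to 0.10 for Itgav, -0.0410 to 0.71 for Itga8, -0.0945 to 0.0275 for Tln1, -0.0159 to 0.14 for Flna, -0.0279 to 0.10 for Cd63 and -0.0522 to 0.00504 for Ilk. Among these 36 genes counting error was highest for Itgax (31.4% of the value in one library), then Itga8 and Elmo1 (30.6% each) and Itgav (23.5%). For Itgal and Itga5 it was 15.9% and 13.9%, below the SD between PYK2 KO mice of 33.5% and 26.4%. All 64 values of the partner ratios moved by less than 1 SD. Under another scaling this was fixed in advance, since scaling cancels in a ratio within a library, so only leaving out a library could move them.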

Other observations

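Whether partner chains moved together from mouse to mouse was looked at over the 6 libraries, with both genotypes pooled, for 8 pairs. Pearson's r ran from -0.28 to 0.83 and Spearman's rho from -0.31 to 0.94. The highest rho was that of Itgal with Itgb2 (0.94, exact permutation p = 0.0167, adjusted p = 0.133 over the 8 pairs, two-sided), where r was 0.80 (exact permutation p = 0.0375, adjusted p = 0.161) and 0.78 without the 2 libraries farthest from the median of Itgal. For Itga4 with Itgb1, r was 0.83 (exact permutation p = 0.0403, adjusted p = 0.161) and rho 0.83 (exact permutation p = 0.0583, adjusted p = 0.233), and r fell to 0.43 without the 2 farthest libraries. No pair passed after adjustment, and the values of a library share one scaling factor.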
